A study of Mus musculus with 55 samples.

Results

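The genes described here are 9 genes of glucose sensing and glycolysis, Txnip, Arrdc4, Mlxipl, Pklr, Pkm, Pfkl, Pfkp, Gapdh and Fbp1, in bulk mRNA-seq of mouse pancreatic islets. They were taken by name from a table of 47937 counted genes, after the Ensembl identifiers were matched to GENCODE symbols, and all 9 were found and passed the filter on low counts. The 16 libraries came from islets of C57B6/J males. They comprised wild-type islets at 8 weeks (3 libraries) and 25 weeks (3), islets heterozygous for Eed at 8 weeks (3) and 25 weeks (2), and Eed -/- islets of βEedKO mice at 8 weeks (3) and 25 weeks (2). Eed is a core subunit of PRC2, the complex that methylates histone H3 at lysine 27 in Polycomb silencing, and βEedKO mice lose it through a Cre transgene driven by the rat insulin promoter, so that Eed is deleted in β cells while other islet cells keep it. Whether the wild-type and heterozygous mice carried Cre is not given in the sources used here. The 25-week βEedKO libraries were pools of islets from more animals than the others, taken after diabetes had set in. All islets were hand picked after collagenase digestion and kept in culture medium with 11 mM glucose, for a time that is not given.

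In β cells, glucose is phosphorylated and burned through glycolysis, and the flux sets insulin release. The same flux is read by ChREBP, the transcription factor encoded by Mlxipl, and by its relative MondoA, encoded by Mlxip. Each pairs with Mlx and binds carbohydrate response elements, which are pairs of E-box-like sites with a short spacer. Txnip, Arrdc4 and Pklr are textbook targets of these factors. Txnip and Arrdc4 encode α-arrestins that reduce glucose uptake, and TXNIP also binds thioredoxin.

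Several libraries stood apart before any comparison was made. At 8 weeks, wild-type replicates 3 and 4 and βEedKO replicates 4 and 5 held 3304 to 4811 summed CPM (reads per 1e6 reads of a library, scaled by TMM) over 10 interferon-induced genes, against 67.8 to 160.1 in the other 12 libraries. Heterozygous replicate 2 at 8 weeks held 3135 summed CPM over 8 adipocyte markers, against 14.0 to 257.6 elsewhere, and 1993 CPM over 6 brown adipocyte markers, against 3.93 to 99.4. The adipocyte lists were added after the glycolytic genes of that library were seen to be high. Its Ucp1, the brown fat uncoupling protein, was at 862 CPM, and the other 15 libraries ranged from 0 to 45.7. The 25-week βEedKO libraries held 0.891% and 2.21% of their reads in Ins1 and Ins2, against 9.40% to 18.9% elsewhere. Total counts ran from 4645393 to 22925359. Eed itself, counted over the whole gene, was at 13.4 to 15.6 CPM in the βEedKO libraries, 16.3 to 20.5 in heterozygous and 19.3 to 33.1 in wild-type libraries.

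The start sites were read against the deposited chromatin-state map of wild-type islets, in which EpicSeg had given each 200 bp bin of GRCm38 a state letter. Of the 9 gene starts, 4 lay in state A (Txnip, Arrdc4, Pfkp, Gapdh) and 2 in state B (Pkm, Pfkl), the states of active start sites. The start of Fbp1 lay in state L and that of Mlxipl in state M, both bivalent states, M being the one with more H3K27me3. The start of Pklr lay in state E, a promoter-proximal state. Over all 42903 annotated starts with a state, A held 16.29%, B 8.097%, E 1.809%, L 7.575% and M 4.375%. Txnip (ENSMUSG00000038393.14) lies at chr3:96557957-96561883, Arrdc4 (ENSMUSG00000042659.15) at chr7:68736995-68749241, Mlxipl (ENSMUSG00000005373.13) at chr5:135089890-135138382 and Pklr (ENSMUSG00000041237.12) at chr3:89136142-89146784.

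Both Mlxipl and Pklr have a second start in another state. In RefSeq, Mlxipl has a start 17001 bp downstream of the annotated gene start, in state A, and Pklr one 481 bp downstream, in state L. The upstream Mlxipl start is the promoter known for the short, constitutively active ChREBP-β, and the downstream one that of ChREBP-α. The upstream Pklr start serves the erythrocyte enzyme and the downstream one the liver enzyme. Gene-level counts do not separate the starts of either gene. The width of the state M segment over the upstream Mlxipl start was 2200 bp, and that of the state A segment over the Txnip start was 600 bp.

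**Figure D1:**
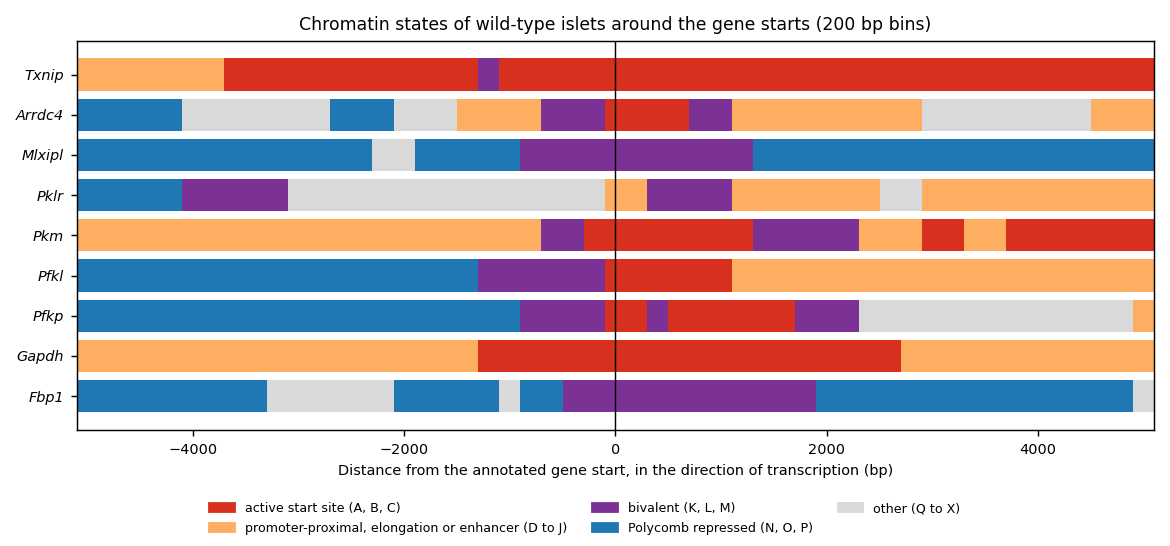
Chromatin states of wild-type islets in 200 bp bins (colours, 5 groups of states) from 5000 bp before to 5000 bp after the annotated start of each gene, with the direction of transcription to the right. Txnip and Gapdh start within runs of active start site and flanking states, while the starts of Mlxipl and Fbp1 lie in bivalent states flanked by Polycomb states.

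The 250 bases before 5 of these starts are shown because they hold, or lack, the motifs that ChREBP and MondoA bind, and because the values below turn on Txnip, Arrdc4, Mlxipl and Pklr. They are RefSeq sequences of GRCm38.p6, read 5′ to 3′ on the gene's strand, and end at the base before the start. Capitals mark matches to the E-box CACGTG or to a carbohydrate response element, written as CACGNG, then 5 bases of any kind, then CNCGNG.
Txnip, chr3:96557707-96557956 (+ strand): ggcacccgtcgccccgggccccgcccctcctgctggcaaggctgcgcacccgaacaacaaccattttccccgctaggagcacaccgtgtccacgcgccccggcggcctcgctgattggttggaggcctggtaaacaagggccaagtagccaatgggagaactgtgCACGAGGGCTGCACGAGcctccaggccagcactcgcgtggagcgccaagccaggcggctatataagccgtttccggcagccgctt
Arrdc4, chr7:68749239-68749488 (- strand): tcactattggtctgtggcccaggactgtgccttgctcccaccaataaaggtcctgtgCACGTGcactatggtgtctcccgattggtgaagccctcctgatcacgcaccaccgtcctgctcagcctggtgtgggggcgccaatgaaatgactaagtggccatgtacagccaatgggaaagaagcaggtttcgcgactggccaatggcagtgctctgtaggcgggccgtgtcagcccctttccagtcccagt
Mlxipl, annotated gene start, chr5:135089640-135089889 (+ strand): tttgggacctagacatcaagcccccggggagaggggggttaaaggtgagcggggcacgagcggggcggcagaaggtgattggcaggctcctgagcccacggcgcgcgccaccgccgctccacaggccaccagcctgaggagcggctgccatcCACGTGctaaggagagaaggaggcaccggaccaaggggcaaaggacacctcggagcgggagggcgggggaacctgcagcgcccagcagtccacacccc
Mlxipl, downstream start, chr5:135106641-135106890 (+ strand): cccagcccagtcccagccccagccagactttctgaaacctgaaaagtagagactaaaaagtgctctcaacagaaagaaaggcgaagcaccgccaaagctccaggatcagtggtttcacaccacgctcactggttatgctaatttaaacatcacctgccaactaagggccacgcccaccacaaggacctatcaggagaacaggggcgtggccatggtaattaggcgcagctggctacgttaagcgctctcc
Pklr, downstream start, chr3:89136373-89136622 (+ strand): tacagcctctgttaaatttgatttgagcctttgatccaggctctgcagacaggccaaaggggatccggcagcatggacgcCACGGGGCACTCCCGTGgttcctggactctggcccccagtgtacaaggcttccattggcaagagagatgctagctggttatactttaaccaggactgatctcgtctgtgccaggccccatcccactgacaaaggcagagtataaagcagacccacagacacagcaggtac
Searched on both strands over 250 bases before and 50 after each RefSeq start, the carbohydrate response element was found before Txnip, at -85 to -69, and before the downstream start of Pklr, at -170 to -154, where it matched on both strands. The E-box was found before Arrdc4, at -193 to -188, and before the upstream start of Mlxipl, at -98 to -93. No match was found in the windows of Pkm, Pfkl, Pfkp, Gapdh or Fbp1, in that of the upstream Pklr start or in that of the downstream Mlxipl start. Of 32851 promoter windows of all genes, 0.3653% held the carbohydrate response element and 7.15% the E-box. A match is a run of letters and was not tested for binding.

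The levels of the 9 genes differed widely. Per kilobase of merged exons and over all 16 libraries, Txnip ran from 26.5 to 421 CPM per kb, Pkm from 68.4 to 165 and Mlxipl from 8.72 to 125. Gapdh ran from 31.5 to 124 CPM per kb and Pfkl from 6.37 to 19.9. Arrdc4, Pklr and Pfkp were lower, at 2.05 to 19.1, 1.24 to 9.93 and 2.13 to 7.94 CPM per kb, and their ranges overlapped. Fbp1 was lowest, at 0.773 to 4.34 CPM per kb, from 13 to 183 reads a library. Gapdh has many processed pseudogene copies in the mouse genome, and how reads shared with them were counted is not stated. Between the lowest and the highest library, the level of Txnip differed 15.9-fold, that of Mlxipl 14.3-fold and that of Arrdc4 9.33-fold, while that of Pkm differed 2.41-fold.

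**Figure D2:**
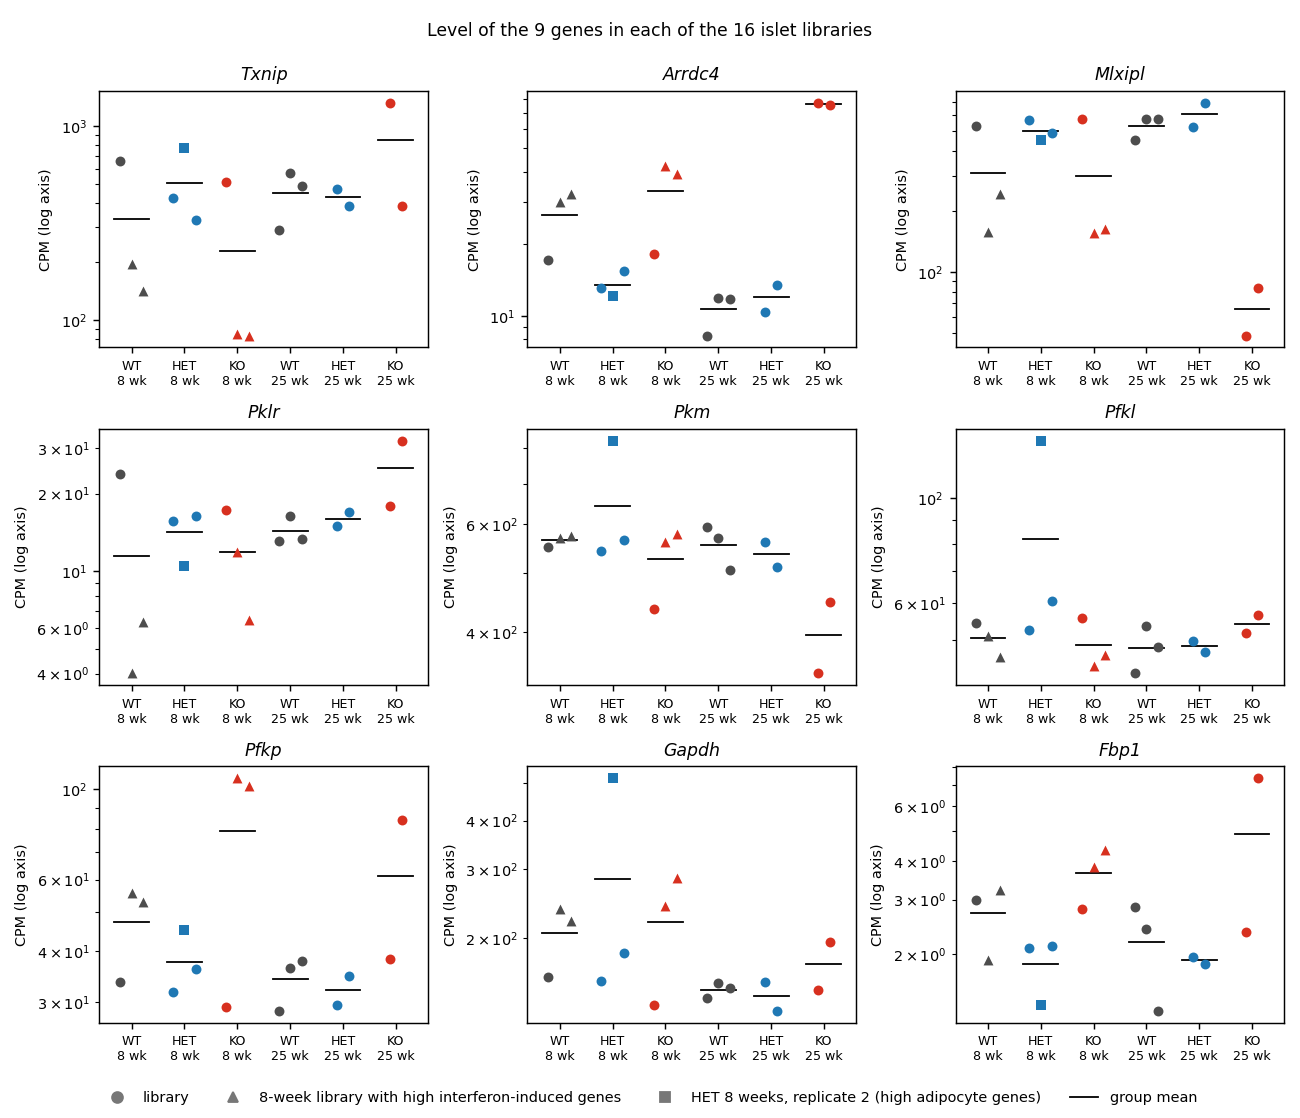
CPM (log axes, scaled to each gene) of the 9 genes in each of 16 libraries, by genotype and age, with black lines at the group means. Triangles mark the 8-week libraries with high interferon-induced genes and squares heterozygous replicate 2. At 25 weeks Arrdc4 is at 77.3 and 75.6 CPM in βEedKO islets, above all 14 other libraries, and Mlxipl is at 48.3 and 83.2 CPM, below all of them.

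The comparison of βEedKO with wild-type islets at 25 weeks asks how the genes stand after onset of diabetes. Arrdc4 rose and Mlxipl fell, and the other 7 genes did not pass the test. Not passing does not show that a gene was unchanged. A gene is named as called where its Benjamini-Hochberg adjusted p, from the quasi-likelihood test of edgeR over all genes tested, fell below 0.05. By that rule 2 of the 9 genes were called, 1 higher and 1 lower, where 6.6% of the 18685 genes tested were called, 4.58% higher and 2.02% lower. The median log2 fold change was 0.75 over the 9 genes and 0.03 over all genes tested. In 5 of the 9 genes the groups did not overlap, namely Arrdc4, Pklr and Pfkp, which were higher, and Mlxipl and Pkm, which were lower. Of all genes tested, 40.6% had groups that did not overlap, so such separation was common with 3 libraries against 2.

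Arrdc4, the α-arrestin, was at 8.28, 11.9 and 11.8 CPM in wild-type replicates 2, 3 and 4 and at 10.4 and 13.5 CPM in the heterozygous libraries. It was at 77.3 and 75.6 CPM in the βEedKO libraries, which lay closer to each other than those of any other group. The log2 fold change over wild type was 2.78 ± 0.39 (SE), a 6.85-fold rise with an adjusted p of 0.00328 by edgeR's quasi-likelihood test. Against heterozygous islets it was 2.68 ± 0.39, with an adjusted p of 0.00143 by the same test. The call was made under all 17 alternative settings, with values between 2.63 and 3.02. The βEedKO libraries lay above all 11 wild-type and heterozygous libraries of both ages, whose highest value was 32.2 CPM.

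Mlxipl, the gene of ChREBP, was at 451, 575 and 572 CPM in wild-type replicates 2, 3 and 4 and at 527 and 691 CPM in the heterozygous libraries. It was at 48.3 and 83.2 CPM in the βEedKO libraries, below every other library of either age. The log2 fold change from wild type was -3.08 ± 0.70 (SE), an 8.43-fold difference with an adjusted p of 0.0273 by edgeR's quasi-likelihood test. Against heterozygous islets it was -3.21 ± 0.66, with an adjusted p of 0.0104. The direction held under all 17 alternatives, between -3.51 and -2.71, but the call against wild type did not: the adjusted p was 0.0798 without wild-type replicate 3, 0.0719 without replicate 4, 0.200 without βEedKO replicate 2, 0.120 without βEedKO replicate 3 and 0.0695 when scaled to library size alone. Its partners did not pass the test. Mlxip was at 88.1 ± 32.3 CPM (SD, n = 3) in wild-type and 56.4 ± 14.4 (n = 2) in βEedKO islets, with an adjusted p of 0.362, and Mlx was at 27.4 ± 0.868 and 24.4 ± 3.41 CPM, with an adjusted p of 0.652, both by the same test.

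Markers of islet and other cells moved with these values. Of 10 β cell markers 9 fell in βEedKO islets at 25 weeks, and their summed level was 14039 and 17455 CPM against 124243 to 221449 in wild-type libraries. Among genes of other cells, 3 of 7 duct markers and 4 of 7 mesenchymal markers rose, with summed levels of 587 and 731 CPM against 266 to 326, and of 247 and 370 against 88.0 to 124. Of 5 alpha cell markers 1 rose, Irx2, and their sum was 11835 and 12471 CPM against 8244 to 9299, while 1 of 7 macrophage markers rose, with overlapping sums. Summed acinar enzymes were at 416140 CPM in βEedKO replicate 2 and 12908 in replicate 3, while Arrdc4 was at 77.3 and 75.6 CPM in these libraries. The part of these cells in the changes of Arrdc4 and Mlxipl was not tested. In whole islets, fewer cells of a type and less RNA per cell cannot be told apart. The single cells of the study were not analysed here.

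Txnip, the other α-arrestin of the set, did not follow Arrdc4. It was at 289, 574 and 491 CPM in wild-type and 473 and 385 CPM in heterozygous libraries at 25 weeks. Of the βEedKO libraries, replicate 2 had 1315 CPM, the highest value of all 16 libraries, and replicate 3 had 387, within the range of the controls. The log2 fold change over wild type was 0.87 ± 0.88 (SE), with an adjusted p of 0.654 by edgeR's quasi-likelihood test, and turned to -0.30 without βEedKO replicate 2. Of the other α-arrestins tested, Arrdc1, Arrdc2 and Arrdc3 had log2 fold changes of -0.19, 0.17 and 0.30 and were not called. None of 12 genes of the thioredoxin system was called by that test, and their median log2 fold change was 0.23.

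None of the glycolytic genes proper was called. Between the lowest and the highest of the 16 libraries, Pklr differed 8.01-fold and Pkm 2.41-fold. Pkm, the main pyruvate kinase of islets, was at 593, 570 and 505 CPM in wild-type libraries and at 342 and 448 in βEedKO libraries. The groups did not overlap, and the log2 fold change of -0.55 ± 0.26 (SE) had an adjusted p of 0.277 by edgeR's quasi-likelihood test. Pklr, the liver and erythrocyte pyruvate kinase, was at 13.1, 16.4 and 13.4 CPM in wild-type and 18.0 and 32.1 in βEedKO libraries. Its log2 fold change was 0.75 ± 0.63, with an adjusted p of 0.577. Pfkl, the liver-type phosphofructokinase, was at 42.5, 53.7 and 48.3 CPM in wild-type and 51.9 and 56.5 in βEedKO libraries, a log2 fold change of 0.11 ± 0.19 with a 95% interval of -0.25 to 0.48.

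Pfkp, the platelet-type phosphofructokinase, was at 28.6, 36.5 and 37.8 CPM in wild-type libraries and at 38.3 and 83.8 CPM in βEedKO replicates 2 and 3, with replicate 2 close to the highest wild-type library. Gapdh was at 141, 154 and 149 CPM in wild-type and 147 and 196 in βEedKO libraries, a log2 fold change of 0.16 ± 0.33. Fbp1, the fructose bisphosphatase of gluconeogenesis, which reverses the phosphofructokinase step, was at 2.83, 2.41 and 1.32 CPM in wild-type and 2.36 and 7.39 CPM in βEedKO libraries. For Pfkp, Pklr, Gapdh and Fbp1 βEedKO replicate 3 was the higher library, and for Txnip it was replicate 2. The adjusted p-values of Pfkp, Gapdh and Fbp1 were 0.451, 0.849 and 0.283 by edgeR's quasi-likelihood test.

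**Figure D3:**
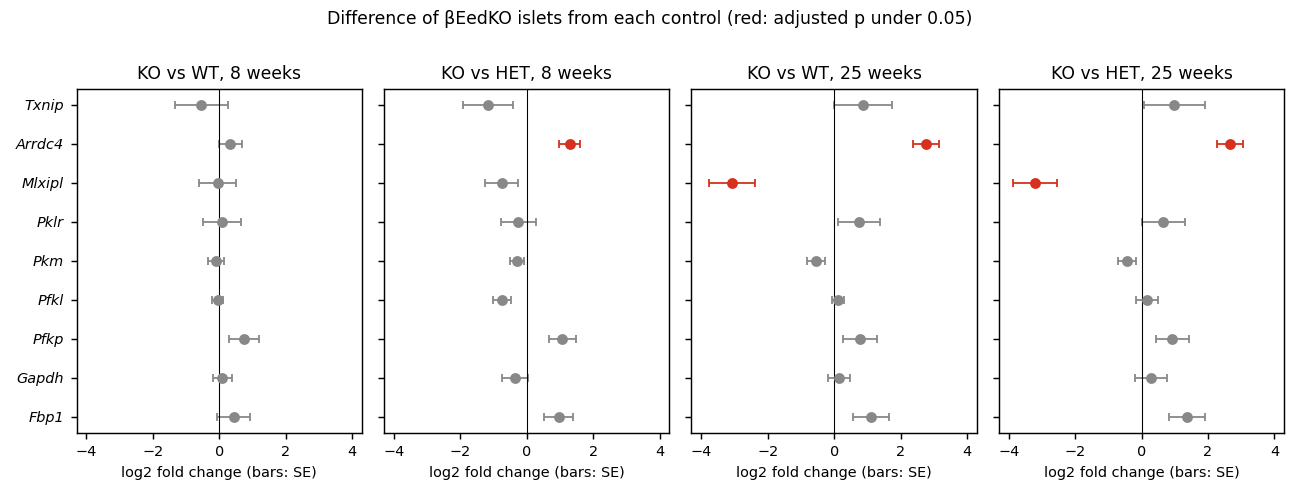
Log2 fold change (bars, SE) of the 9 genes in βEedKO islets against wild-type and heterozygous islets at each age, red where the adjusted p was under 0.05. Arrdc4 and Mlxipl are red in both comparisons at 25 weeks, at 2.78 and -3.08 against wild type, and Arrdc4 alone is red at 8 weeks, at 1.29 against heterozygous islets.

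At 8 weeks, before diabetes, none of the 9 genes passed the test between βEedKO and wild-type islets. The same test, edgeR's quasi-likelihood test, called 0.434% of all genes, or 0 genes with the replicate number as a block, and none of the 9 had an unadjusted p under 0.05, as 7.87% of all genes had, or was called by DESeq2. The 9 log2 fold changes lay between -0.54 for Txnip and 0.74 for Pfkp, with a median of 0.08, and in none of the 9 were the groups apart, where they were apart in 11.4% of all genes. The levels moved with the split of the libraries by interferon-induced genes. Txnip was at 657 and 513 CPM in replicates 1 of wild-type and βEedKO islets, where those genes were low, and at 194 and 141 CPM in wild-type replicates 3 and 4 and 84.6 and 82.9 CPM in βEedKO replicates 4 and 5, where they were high.

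The same split ran through all of the genes but Fbp1. It was narrow for Pkm, at 551 and 436 CPM in replicates 1 against 562 to 579, and for Pfkl, at 54.4 and 55.7 against 44.1 to 51.0. The share of all genes split in this way was not counted, so the split is not shown to be particular to these genes. Mlxipl was at 530.2 and 578 CPM in replicates 1 and at 157 to 244 CPM in the 4 interferon-high libraries. Pklr was at 23.9 and 17.3 CPM in replicates 1 against 4.01 to 11.8. Arrdc4, Pfkp and Gapdh were split the other way, with 17.1 and 18.2 against 29.9 to 42.3 CPM for Arrdc4, 33.6 and 29.1 against 52.8 to 106 CPM for Pfkp, and 159 and 135 against 221 to 285 CPM for Gapdh. For Txnip the 4 interferon-high libraries were also below all of the other 12, from both ages and 3 genotypes, the lowest of which had 289 CPM.

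The interferon-high libraries also had the lowest immediate-early genes, with 767 to 1156 summed CPM over 10 genes, against 1531 to 14546 in the other 12. Whether the split came from the animals, the culture or the library is not given in the sources used here. At 8 weeks the split fell within both genotypes, so both were compared on each side of it. Without replicates 1, the log2 fold changes of βEedKO against wild type were -0.998 ± 0.545 (SE) for Txnip, 0.39 ± 0.21 for Arrdc4 and -0.33 ± 0.32 for Mlxipl, none of them called. Pfkp was then at 102 and 106 CPM in βEedKO libraries and at 52.8 and 55.6 CPM in wild-type libraries, with a log2 fold change of 0.94 ± 0.32 and an adjusted p of 0.229 by edgeR's quasi-likelihood test. With only replicates 1 kept at 8 weeks, 1 library a genotype, the log2 fold change of Pfkp was -0.19 ± 0.53.

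**Figure D4:**
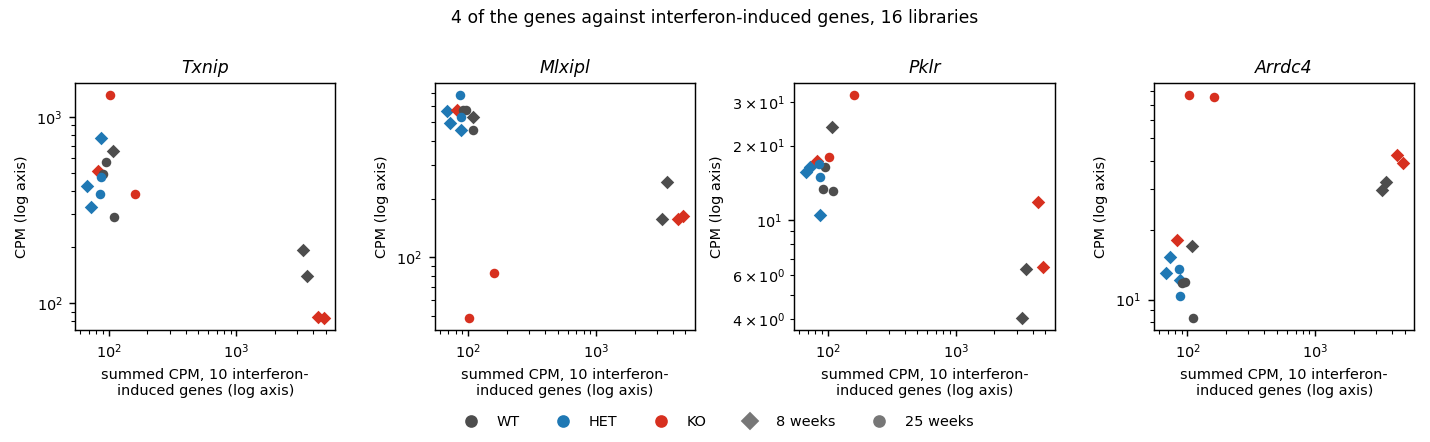
CPM of Txnip, Mlxipl, Pklr and Arrdc4 against the summed CPM of 10 interferon-induced genes in the 16 libraries (log axes), by genotype (colour) and age (shape). The 4 interferon-high libraries, at 3304 to 4811 CPM, hold the 4 lowest Txnip and the 3 lowest Pklr values, while the 25-week βEedKO libraries have the lowest Mlxipl and highest Arrdc4 at low interferon-induced genes.

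The difference between the 2 ages was tested in its own right. The βEedKO effect at 25 weeks minus that at 8 weeks was 2.45 ± 0.52 (log2, SE) for Arrdc4 and -3.02 ± 0.86 for Mlxipl, with adjusted p-values of 0.126 and 0.277 by edgeR's quasi-likelihood test. None of the 9 genes was called, where 0.198% of all genes were, although Arrdc4 and Mlxipl had an unadjusted p under 0.05, as 7.76% of all genes had. DESeq2 called both, and 1.82% of all genes. Without replicates 1 at 8 weeks the value for Arrdc4 was 2.36 and its adjusted p 0.0183 by edgeR, with 0.325% of all genes called. In that fit Mlxipl was at -2.76 and was not called, with an adjusted p of 0.0524 by edgeR. Without the interferon-high libraries, 1 library a genotype at 8 weeks, the values were 2.67 for Arrdc4 and -3.22 for Mlxipl.

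With age alone, none of the 9 genes was called in wild-type islets, where 0% of all genes were, or in βEedKO islets, where 1.5% were, by edgeR's quasi-likelihood test. At an unadjusted p under 0.05 there was 1 in wild-type islets, Arrdc4, where 10.2% of all genes were under it, and 2 in βEedKO islets, Arrdc4 and Mlxipl, where 14.1% were. DESeq2 called none and 1, the latter Mlxipl, and 0.744% and 5.14% of all genes. These counts changed with the choice of 8-week libraries. Against those alone at 8 weeks, wild-type islets at 25 weeks had lower Arrdc4 (log2 fold change -1.501) and higher Mlxipl (1.43) and Pklr (1.49), all called, and βEedKO islets had higher Txnip (3.30), Arrdc4 (0.86) and Pklr (1.39) and lower Mlxipl (-1.34), all called. In these fits 10.3% of all genes were called in wild-type and 15% in βEedKO islets. Against replicates 1 alone, 1 library a genotype, wild-type islets had log2 fold changes of -0.61 for Arrdc4, 0.057 for Mlxipl and -0.68 for Pklr. In βEedKO islets they were 0.72 for Txnip, 2.05 for Arrdc4, 0.51 for Pklr and -3.16 for Mlxipl. With 1 library in a group, calls in that fit cannot be set beside those above.

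Heterozygous islets gave no call among the 9 genes against wild-type islets at either age by edgeR's quasi-likelihood test, which called 0% of all genes at 25 weeks and at 8 weeks. DESeq2 also called none of the 9, and 3 of 18828 genes at 25 weeks and 407 at 8 weeks. At 25 weeks none of the 9 had an unadjusted p under 0.05, as 1.12% of all genes had, and at 8 weeks Arrdc4 and Pfkl had, as 14.6% of all genes had. All 5 heterozygous libraries had low interferon-induced genes. At 8 weeks Arrdc4 was at 13.1, 12.2 and 15.4 CPM in heterozygous replicates 1, 2 and 3, below all wild-type libraries of that age, and its log2 fold change was -0.96 ± 0.31 (SE) with an adjusted p of 0.246. It was called, at -1.27, when wild-type replicate 1 was left out, which leaves interferon-high libraries alone on the wild-type side, and 3.2% of all genes were then called.

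Between βEedKO and heterozygous islets, 2 of the 9 genes were called at 25 weeks, Arrdc4 and Mlxipl, where 8.36% of all genes were, and 1 at 8 weeks, Arrdc4, where 4.74% were. These comparisons share their βEedKO libraries with those against wild type. The 8-week call had a log2 fold change of 1.29 ± 0.31 (SE) and an adjusted p of 0.0351 by edgeR's quasi-likelihood test, and it rested on the interferon-high libraries. With the replicate number as a block it was lost, at 0.77 with an adjusted p of 0.433 by the same test. Arrdc4 was at 18.2 CPM in βEedKO replicate 1 and at 42.3 and 39.0 CPM in replicates 4 and 5. With replicate 1 alone the log2 fold change was 0.42, with an adjusted p of 0.537. Without replicate 1, 4 genes were called: Txnip at -2.60, Mlxipl at -1.65, Pfkp at 1.46 and Arrdc4 at 1.59, where 21.7% of all genes were called.

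Heterozygous replicate 2 at 8 weeks, the library with adipocyte genes, had the highest Pkm (824 CPM), Pfkl (133 CPM) and Gapdh (514 CPM) of all 16 libraries. Without it the highest values were 593 CPM for Pkm, 60.6 for Pfkl and 285 for Gapdh. Of 24 listed glycolytic enzymes 14 were highest in this library, among them Hk2 at 118 CPM against at most 15.5 elsewhere. So were 15 of 23 genes of pyruvate entry and NADH shuttles, 10 of 27 glucose-responsive genes outside glycolysis and 0 of 5 α-arrestins. The share of all genes that were highest in this library was not counted. Its Mlxipl, at 453 CPM, and Arrdc4, at 12.2 CPM, lay near those of the other heterozygous libraries. The part of adipocyte RNA in these levels was not tested. No call among the 9 genes at 25 weeks used this library's level, though it entered the estimate of spread in the fit of all 16 libraries.

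The isozyme make-up of 2 glycolytic steps was then followed as shares within a library, which do not depend on scaling between libraries. Each share is the reads per kb of one gene over those of all genes of the step. Pklr made up 3.83% ± 0.490 (SD, n = 3) of pyruvate kinase reads per kb in wild-type islets at 25 weeks and 8.74% ± 1.75 (n = 2) in βEedKO islets, at 7.51% and 9.98%, above all 14 other libraries. At 8 weeks the shares were 3.01% ± 2.84 (n = 3) in wild-type and 3.54% ± 2.07 (n = 3) in βEedKO islets. Averaged over the ages the difference was 2.72 percentage points, with p = 0.09 in a two-sided exact permutation test of genotype within age. Without replicates 1 at 8 weeks it was 2.98 points, with p = 0.0167 in that exact test. Without the interferon-high libraries it was 2.21 points. With 1 library a genotype then left at 8 weeks, the exact test could not fall below 0.05.

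Pfkp made up 9.23% ± 0.739 (SD, n = 3) of phosphofructokinase reads per kb in wild-type islets at 25 weeks. In βEedKO islets the share was 9.47% in replicate 2 and 19.5% in replicate 3. At 8 weeks it was 25.6% and 24.2% in the interferon-high βEedKO libraries, 15.5% and 15.0% in the interferon-high wild-type libraries, and 6.76% and 8.23% in replicates 1 of βEedKO and wild-type islets. The difference averaged over the ages was 5.58 percentage points, with p = 0.135 by the exact permutation test. Without the interferon-high libraries, which left 1 library a genotype at 8 weeks, it was 1.89 points. Without replicates 1 at 8 weeks it was 7.43 points, with p = 0.0333 in that exact test. After Benjamini-Hochberg adjustment over the 2 shares p was 0.135 for both in that exact test, and at a single age the test could not go below 0.1, the value reached at 25 weeks for Pklr. Pfkm, the muscle form, was the largest of the 3 phosphofructokinase genes per kb in every library.

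Among single enzymes outside the 9 genes, Hk1, a hexokinase that β cells normally keep low, rose at 25 weeks from 7.46 ± 2.45 CPM (n = 3) to 46.8 ± 7.22 (n = 2), with a log2 fold change of 2.61 ± 0.33 (SE) and an adjusted p of 0.00184 by edgeR's quasi-likelihood test.

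**Figure D5:**
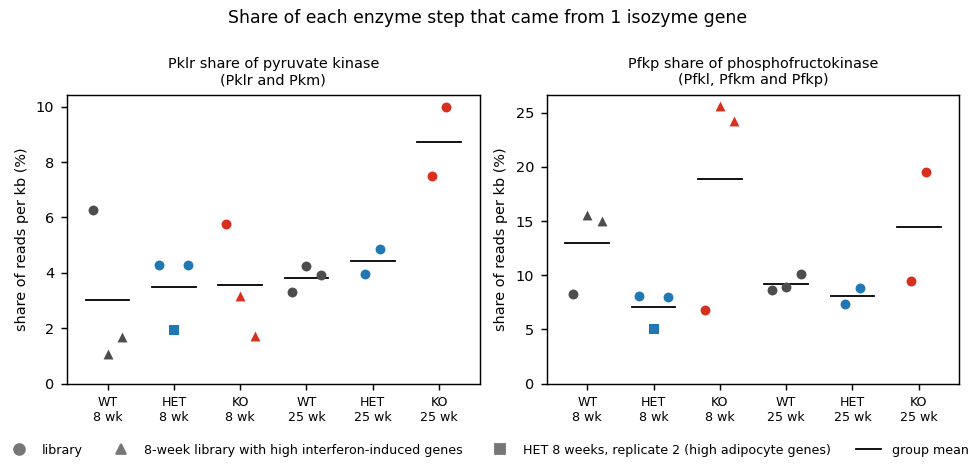
Share of reads per kb (%, linear axes from 0) of Pklr among pyruvate kinase genes and Pfkp among phosphofructokinase genes in each of 16 libraries, with group means as black lines. The Pklr share is 7.51% and 9.98% in βEedKO islets at 25 weeks, above all other libraries, and the Pfkp share is highest in the interferon-high βEedKO libraries at 8 weeks, at 25.6% and 24.2%.

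Other genes of glucose metabolism were followed in 10 lists chosen by function. Apart from the 9 genes, 126 of 128 listed genes were tested by edgeR's quasi-likelihood test. At 25 weeks 2 rose and 6 fell in βEedKO islets, with a median log2 fold change of -0.04, and at 8 weeks none was called. Of all 18685 genes tested, 4.58% rose and 2.02% fell at 25 weeks, and 0.434% were called at 8 weeks. With both directions together the listed genes were thus called about as often as all genes. More of them fell than rose at 25 weeks, the reverse of all genes. The 2 that rose were Hk1 and Egln3, an oxygen-sensing prolyl hydroxylase, at 2.88 ± 0.71 (log2, SE). The largest fall was that of G6pc2, the islet glucose-6-phosphatase, which releases free glucose, from 1487 ± 527 CPM (SD, n = 3) to 125 ± 37.3 (n = 2), at -3.63 ± 0.48. Pcx, the pyruvate carboxylase that feeds pyruvate into the citric acid cycle, fell by 2.52 on the log2 scale.

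The other 4 that fell were genes around glycolysis and its side branches. Pfkfb2, whose enzyme makes the activator of phosphofructokinase, fell by 1.54 on the log2 scale. Gpd2, the mitochondrial glycerol phosphate dehydrogenase of the NADH shuttle, also fell by 1.54. Tigar, of the listed glycolytic regulators, fell by 1.17, and Rpia, of the pentose phosphate pathway, by 1.16. Among the 24 glycolytic enzymes 1 rose, none fell and 15 had a positive log2 fold change, with a median of 0.19. Among 27 glucose-responsive genes outside glycolysis, Arrdc4 rose, G6pc2 fell, and the median was -0.22. Ldha and Slc16a1, which β cells also keep low, had log2 fold changes of 1.64 and 1.76 with adjusted p-values of 0.202 and 0.223. Neither was called by edgeR's quasi-likelihood test, and both were named outside the rule for named genes given below. Among 14 hypoxia-inducible genes Egln3 alone was called.

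Over the 16 libraries the 9 genes fell into loose groups, given here as a description across libraries that share genotype, age and the interferon split. On log2 CPM, Arrdc4 and Mlxipl had a Pearson correlation of -0.93, and -0.75 after the group means were removed. Txnip and Pfkp had -0.69, and Txnip and Arrdc4 -0.23, or -0.74 within groups. Pkm and Gapdh had 0.66, or 0.90 within groups. The genes most like Arrdc4 were Nbl1, Fam167a and Fam43a, at 0.96, 0.95 and 0.95 among 11039 protein-coding genes. Those most like Mlxipl were Insrr, Snph and Atp2a3, at 0.98, 0.97 and 0.97, and those most like Gapdh were Eno1, a glycolytic enolase, Gpat4 and Cycs, at 0.97, 0.96 and 0.94. For Txnip they were Narf, Zfp383 and Ap1g2, at 0.94, 0.94 and 0.93.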

How the data were processed

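Bulk mRNA-seq of mouse islets, 16 libraries in 6 groups, was analysed together with a chromatin-state map of wild-type islets. Values deposited by the authors are raw counts per gene, from TopHat 2.0.13 alignments to GRCm38 counted by featureCounts (subread 1.5.0-p1) over Gencode M9. Whether strand was used is not stated. The map gives a letter per 200 bp bin on autosomes and carries no level or spread. Names, positions and starts were taken from GENCODE M21 (same build), which held 47224 of the 47937 counted genes, and promoters from RefSeq, which held all 9 genes.

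Counts were tested in R 4.3.3 with edgeR 4.0.16 (TMM, filterByExpr, quasi-likelihood test, Benjamini-Hochberg, threshold 0.05). The 11 wild-type and βEedKO libraries were fitted together, and all 16 for comparisons with heterozygous islets. SE is the absolute log2 fold change over the square root of F. CPM are TMM-scaled over 16 libraries. Log2 CPM for correlations had a prior count of 2. Alternatives were DESeq2 1.42.0, other scalings, no filter, a replicate block and leaving out libraries. Scripts were tested on simulated data. In simulated counts the edgeR test called 0% of genes given a log2 change of 1 at 25 weeks. It called 29.7% of those given 2 and 58.5% of those given 3. At 8 weeks it called 1.59%, 38.3% and 62.5%. A gene that was not called is therefore not shown to be unchanged at either age. Fewer genes were changed in the simulation than the 1234 called between βEedKO and wild-type islets at 25 weeks. The adjustment of p was thus stricter there, and the 25-week shares are not the recovery of the test on the islets. Total counts of 4645393 to 22925359 limit the precision of low genes such as Fbp1. P-values measure the spread between these libraries, which the labels do not tie to single animals.

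The members, lists and tests were chosen with earlier results of these data known. Adipocyte lists and both interferon splits were added after the values were seen. Named genes were all members, listed genes called between βEedKO and wild-type islets, at most 4 further genes of a list that a sentence on a member needed, and the 3 genes most correlated with a member among protein-coding genes with a mean of at least 5 CPM. As a check of pairing, deviations from the group means were correlated between same-numbered libraries. For wild-type and βEedKO islets r was 0.457 and 0.163 at 8 weeks and 0.176 and 0.255 at 25 weeks. Unlike numbers reached similar values at 8 weeks: βEedKO replicate 5 had 0.45 with wild-type replicate 3 and 0.329 with replicate 4. At 25 weeks the βEedKO libraries deviate as mirror images, so each r is matched by its negative. Same-numbered pairs with heterozygous islets had r from -0.015 to 0.161. Pairing by number is thus not established by the data or by a label. The main fits had no block, and the replicate number was a block in an alternative only. Within groups, chi-square per degree of freedom between libraries was at least 31.0, above sampling noise. It was highest, at 592, between βEedKO replicates 2 and 3 at 25 weeks, on which the 25-week results rest. Their TMM factors, 0.760 and 1.50, were the lowest and the highest of all libraries. ChIP-seq signal and single-cell data were not analysed here. One planned comparison of isozyme shares is not reported here.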

Additional observations from a re-analysis of the deposited data

How the results depend on the processing

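Arrdc4 at 25 weeks kept its direction and call against wild-type and heterozygous islets under every alternative run, and Mlxipl its direction but not every call. Of 9 genes, the number called between βEedKO and wild-type islets at 25 weeks was 1 under library size alone and 1 to 2 as single libraries were left out. Against heterozygous islets it was 1 to 2 at 25 weeks. At 8 weeks it was 0 under library size alone, 0 with the replicate block, 4 without the low-interferon (29.5% of all genes called) and 0 without the interferon-high libraries (0.472%), and 0 to 4 as single libraries were left out. Without the low-interferon libraries at 8 weeks it was 3 between heterozygous and wild-type islets (16.7% of all genes called; 0 to 1 of the 9 as single libraries were left out), 3 with age in wild-type islets (10.3%), 4 with age in βEedKO islets (15%) and 1 for the difference between ages (0.325%). DESeq2 called 1 with age in βEedKO islets and 2 for the difference between ages, where no filter and the fit of all 16 libraries each gave 1. Shares of Pfkp and Pklr differed by 7.29 and 2.48 percentage points against wild-type and heterozygous islets pooled (exact permutation p = 0.0170 and 0.0306). The heterozygous libraries so added were all low in interferon-induced genes. They include replicate 2 at 8 weeks, the library with adipocyte genes, whose Pfkp share of 5.03% was the lowest of all 16. Pooling therefore does not separate genotype from the interferon split at 8 weeks. Without the low-interferon libraries Pfkp and Pklr differed by 7.43 and 2.98, and without the interferon-high ones by 1.89 and 2.21. As single libraries were left out they ran from 3.08 to 8.61 and 2.11 to 3.54. Many uncalled directions at 8 weeks turned, though not those of Arrdc4, at 0.076 to 0.628 for βEedKO and -1.27 to -0.336 for heterozygous islets against wild type. Without the interferon-high libraries the log2 fold changes of βEedKO over wild type turned for Fbp1 (-0.080), Gapdh (-0.23), Mlxipl (0.14), Pfkl (0.045), Pfkp (-0.19) and Pklr (-0.45), those over heterozygous islets for Mlxipl (0.19), Pfkp (-0.38) and Txnip (0.0055), those of heterozygous over wild type for Mlxipl (-0.075) and Pklr (-0.75), and that of age in wild type for Pklr (-0.68). Library size alone, which moved the median of all genes by 0.20 at 8 weeks and 0.25 at 25 weeks, turned Mlxipl (0.21), Pfkl (0.16) and Pkm (0.083) at 8 weeks. The replicate block turned Gapdh at 8 weeks (-0.054), age in wild type for Mlxipl (-0.49) and Pklr (-0.65) and age in βEedKO islets for Pklr (-0.19), and changed no other call than that of Arrdc4 against heterozygous islets at 8 weeks (0.77, adjusted p 0.433 by edgeR). Left-out libraries turned, between βEedKO and wild-type islets, Gapdh (-0.057 to 0.33) and Txnip (-0.30 to 1.49) at 25 weeks and Gapdh (-0.14 to 0.36), Mlxipl (-0.94 to 0.54), Pfkl (-0.15 to 0.013), Pklr (-0.32 to 1.17), Pkm (-0.19 to 0.023) and Txnip (-1.96035 to 0.40) at 8 weeks. They also turned Arrdc4 (-0.041 to 0.34) and Mlxipl (-0.0071 to 0.38) between heterozygous and wild-type islets at 25 weeks, Pklr between them at 8 weeks (-0.089 to 1.39) and Pklr with age in wild type (-0.039 to 1.44). The cause of these changes was not tested. Where leaving out a library left 1 in a group, that library was assumed to vary like the others.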
